A study of Mus musculus with 12 samples.

Results

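A set of 10 genes of the ureteric tip and its Gdnf-Ret loop was followed in fetal mouse kidneys in culture, in samples with activated beta-catenin and in wildtype samples. Beta-catenin enters the nucleus and switches on the target genes of canonical Wnt signalling. The genes are Calb1, Gdnf, Ret, Gfra1, Etv4, Etv5, Spry1, Spry2, Dusp6 and Gata3. A probe set was taken where the platform annotation gave it a single gene symbol and that symbol was one of these. All 10 genes were found, on 14 of 20380 single-symbol probe sets, and they are 10 of 12393 genes tested. Calb1, Gfra1, Etv5 and Spry2 had 2 probe sets each, and the brighter of the pair represents the gene unless said otherwise. No member was named by any of the 691 probe sets with several symbols.

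There were 6 activated samples, whose labels describe kidneys carrying tumours, and 6 wildtype samples, labelled normal. All were C57BL/6. The mothers of both genotypes were injected with tamoxifen at 10.5 days post coitum (dpc), 2 mg per 40 g of body weight, and the kidneys were taken at 10.5 dpc and cultured for 3 to 4 days, so the drug and the culture are common to both groups. The labels name neither the Cre line nor the cells in which beta-catenin was activated, and nothing in them gives each sample its own animal, so p-values measure the spread between these 12 samples. The sample titles form a lower run of numbers and a higher run, with 3 activated and 3 wildtype samples in each. What the runs stand for is not stated in the labels.

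In the developing kidney, GDNF is secreted by the mesenchyme and binds the receptor tyrosine kinase RET together with its co-receptor GFRA1 on the tips of the ureteric bud, the epithelial tree that becomes the collecting system. RET signals through the ERK pathway to the ETS transcription factors ETV4 and ETV5, which drive tip growth and branching, while Sprouty proteins and the phosphatase DUSP6 are induced by the same pathway and damp it. GATA3 is a transcription factor of the nephric duct and ureteric bud that maintains Ret there, and calbindin, the calcium-binding product of Calb1, is widely used to stain the ureteric tree.

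Values are array intensities on the scale log2(intensity + 16), normalised to a common distribution across arrays, and a difference is activated minus wildtype on that scale. It understates the change of dim genes. The arrays hold no detection calls, so signal was set beside 27 probe sets for bacterial control transcripts, of which the highest reading was 5.45. Calb1, Gdnf, Etv5, Spry1, Spry2, Dusp6 and Gata3 read above 5.45 on all 12 arrays. Gfra1 did so on 5 arrays and Etv4 on 4. Ret did so on 0 of 12, so the receptor itself was not measured above background. Levels of different genes cannot be ranked from such probe sets.

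The labels were checked against canonical Wnt targets. All 6 of Axin2, Lef1, Nkd1, Apcdd1, Sp5 and Notum had a positive difference over 12 arrays, and 1 passed the test, the membrane Wnt inhibitor Apcdd1 (1.99, SE 0.27, limma adjusted p = 0.0143). Their median difference was 0.30 in the higher run and 2.27 in the lower run. In the higher run 1 passed, Apcdd1 (1.08, limma adjusted p = 0.00689), with Notum at 0.13, and in the lower run 3 passed. The effect of activation differed between runs, higher minus lower, for Apcdd1 (-1.82, limma adjusted p = 0.00194) and Notum (-2.75, adjusted p = 0.00438). That test called 0.331% of all genes. Lef1 averaged under the bacterial control. Of 7 markers of the whole kidney 6 were measured, 5 of them negative over 12 arrays, as 53.4% of all genes were, and limma called 0. Wt1 averaged 9.27 in activated and 9.55 in wildtype samples, and the nephron progenitor factor Six2 averaged 8.94 in activated and 10.09 in wildtype samples. The Six2 difference was -0.29 in the higher run and -2.01 in the lower run. Foxd1 had -0.58 over 12 arrays, Lhx1 -0.40, Sall1 -0.07 and Pax8 0.02. Activated 2 stood apart in RNA quality: its 5′ over 3′ signal for the control gene Gapdh was 0.07 on the log2 scale, against -2.61 to -1.06 on the other arrays. Activated 4 read 10.90 for Xist beside a mean of 7.54 for Y-linked genes, whereas each other array was high in 1 of these alone.

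RefSeq promoter windows of build GRCm38.p6 were listed for 7 of the 10 members, and 4 of the 9 windows are printed here to show the ligand gene and the members whose window holds a motif of this pathway or of Wnt signalling. Each run is the 250 bases before the listed start, 5′ to 3′ along the gene. Capitals mark CCGGAA, a core bound by ETS factors such as ETV4 and ETV5, or CTTTG followed by 2 bases that are each A or T, the core of the site of the TCF/LEF partners of beta-catenin, on either strand.
Gdnf promoter, chr15:7809798-7810047, plus strand: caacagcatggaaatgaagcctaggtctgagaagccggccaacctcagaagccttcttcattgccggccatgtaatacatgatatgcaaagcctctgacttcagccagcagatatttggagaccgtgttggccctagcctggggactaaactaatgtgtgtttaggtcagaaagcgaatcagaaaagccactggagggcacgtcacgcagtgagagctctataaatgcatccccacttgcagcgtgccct
Gfra1 promoter, chr19:58455399-58455648, minus strand: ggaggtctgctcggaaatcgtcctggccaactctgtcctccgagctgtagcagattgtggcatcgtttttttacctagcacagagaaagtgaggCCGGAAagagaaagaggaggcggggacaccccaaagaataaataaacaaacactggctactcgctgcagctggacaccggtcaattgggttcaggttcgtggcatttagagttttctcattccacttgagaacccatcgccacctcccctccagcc
Gata3 promoter, chr2:9878601-9878850, minus strand: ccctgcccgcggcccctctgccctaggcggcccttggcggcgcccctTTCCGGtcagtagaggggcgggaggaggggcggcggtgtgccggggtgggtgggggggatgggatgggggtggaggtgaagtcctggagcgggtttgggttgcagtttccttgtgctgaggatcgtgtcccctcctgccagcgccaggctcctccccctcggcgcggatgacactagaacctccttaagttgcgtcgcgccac
Spry2 promoter, chr14:105896820-105897069, minus strand: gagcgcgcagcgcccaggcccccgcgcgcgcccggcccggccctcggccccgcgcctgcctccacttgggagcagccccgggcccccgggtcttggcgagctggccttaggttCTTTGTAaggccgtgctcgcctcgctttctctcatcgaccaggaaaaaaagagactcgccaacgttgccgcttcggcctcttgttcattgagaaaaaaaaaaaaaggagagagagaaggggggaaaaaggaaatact
The ETS core stood in 2 of the 9 windows, those of Gfra1 and Gata3, and in 12% of the 32851 windows of all genes. The TCF/LEF core stood in 1 of the 9, that of Spry2, and in 14.8% of all windows. The Gdnf window held neither. A match describes the letters only, and none of these 4 genes passed the test described next.

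Activated kidneys had less Calb1 transcript than wildtype kidneys, and Calb1 was the only one of the 10 members past the test. Its level averaged 10.79 ± 0.26 in activated and 11.54 ± 0.17 in wildtype samples (SD, n = 6 each), with median intensities of 1678 in activated and 2918 in wildtype samples. The difference was -0.75 (SE 0.12, 95% interval -0.9997 to -0.5052, limma adjusted p = 0.0416), which makes it 1.68-fold lower in activated kidneys. In whole cultured kidneys, fewer cells of a type and less RNA per cell cannot be told apart.

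By array, the higher run gave 11.15, 10.63 and 11.03 in activated samples, against 11.34, 11.40 and 11.53 in wildtype samples. The lower run gave 10.55, 10.85 and 10.53 in activated samples, against 11.78, 11.70 and 11.51 in wildtype samples. All 6 activated arrays lay below all 6 wildtype arrays. The same separation toward lower values was seen for 0.21% of all genes, and the adjusted test called 0.00807% of all genes lower, which is Calb1 alone. In either direction it called 0.0242%, or 3 genes.

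**Figure D1:**
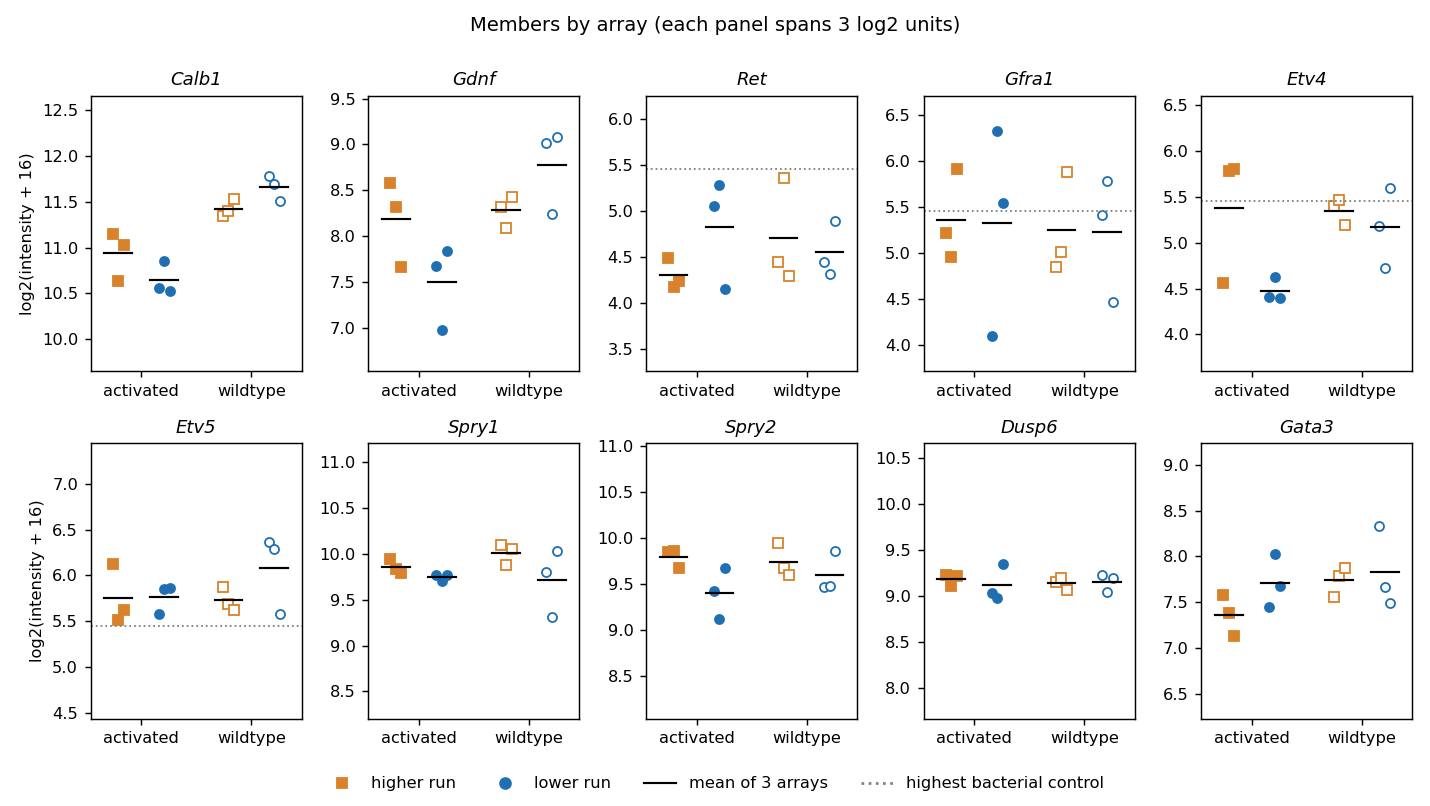
Level of each member on every array, as log2(intensity + 16), for activated (filled) and wildtype (open) samples, split into the higher run (orange squares) and the lower run (blue circles). Bars are means of 3 arrays, the dotted line is the highest bacterial control at 5.45, and each panel spans 3 log2 units. Calb1 alone separates the genotypes on all 12 arrays, and every Ret value lies under the dotted line.

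The second probe set of Calb1 was dimmer. In the higher run it read 7.47, 7.27 and 6.60 in activated samples, against 7.67, 7.24 and 7.94 in wildtype samples. Lower-run values were 7.18, 6.84 and 7.79 in activated samples, against 8.15, 7.67 and 8.23 in wildtype samples. Its genotypes overlapped over the 12 arrays, and its difference of -0.62 (SE 0.21, limma adjusted p = 0.676 over 20380 probe sets) did not pass the test.

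With a term for the run, the Calb1 difference had an adjusted p of 0.0148 (limma, SE 0.11), among 13 genes called, 3 of them lower (0.0242%). Within the higher run it was -0.49 (SE 0.13, 95% interval -0.78 to -0.19, limma adjusted p = 0.548). Within the lower run it was -1.02 (SE 0.12, 95% interval -1.29 to -0.74, limma adjusted p = 0.00495), or 2.02-fold lower in activated kidneys. Calb1 was the only member whose activated arrays lay below the wildtype arrays in both runs, as 0.581% of all genes did. Lower values without overlap were seen for 5.73% of all genes in the higher run and for 7.09% in the lower run. The effect of activation differed between the runs by 0.53, higher minus lower (SE 0.19, limma adjusted p = 0.502), which did not pass the test. That test called 0.331% of all genes.

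The 12-array call for Calb1 rests close to its threshold. It was kept without wildtype 4 (adjusted p = 0.0399), activated 4 (0.0122) or activated 6 (0.0384) in limma. It was lost without wildtype 1 (0.153), wildtype 2 (0.123), wildtype 3 (0.0955), wildtype 5 (0.0739) or wildtype 6 (0.117), and without activated 1 (0.151), activated 2 (0.110), activated 3 (0.142) or activated 5 (0.0712). Over these 12 fits the difference stayed between -0.83 and -0.69. With the term for the run, the call was lost without wildtype 1 (0.0566), wildtype 2 (0.0564), activated 1 (0.0597) or activated 3 (0.0524) and kept without each of the others. Among lower-run arrays alone it was kept in all 6 such fits, with adjusted p between 0.00472 and 0.0497. The intensities as deposited, without quantile normalisation, gave -0.76 with an adjusted p of 0.0694 over 12 arrays, and the mean of both probe sets gave -0.69 with 0.102. Without activated 2 and activated 4, the arrays that stood apart, it was -0.86 with 0.0369.

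**Figure D2:**
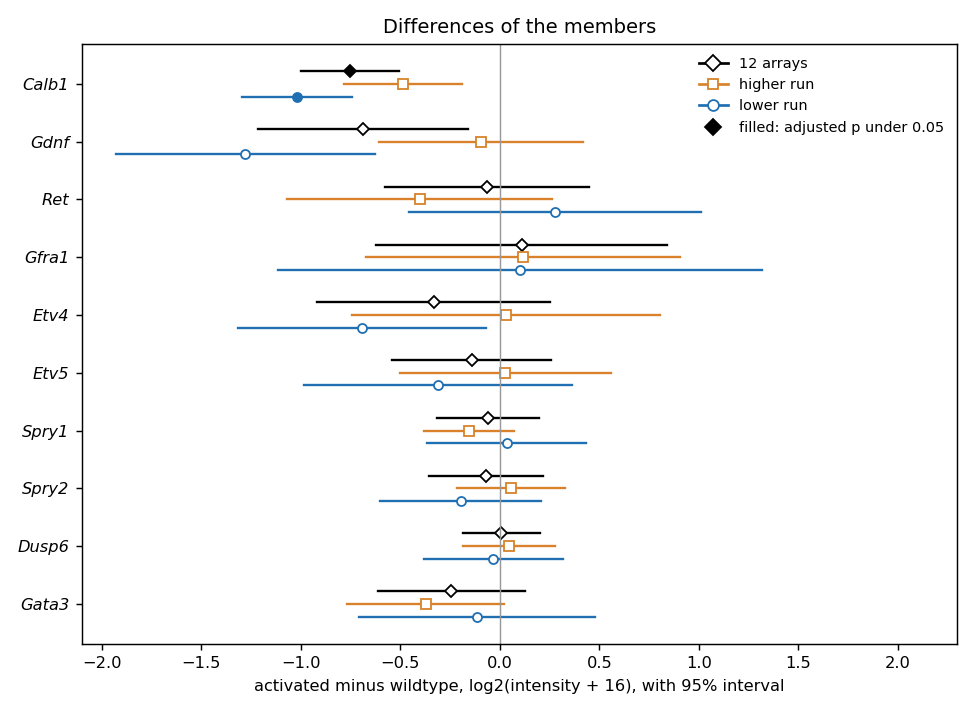
Activated minus wildtype difference of each member with its 95% interval, in log2(intensity + 16), over 12 arrays (black diamonds), in the higher run (orange squares) and in the lower run (blue circles). Filled symbols passed the test at an adjusted p under 0.05. The Calb1 differences over 12 arrays (-0.75) and in the lower run (-1.02) are the filled ones, and the Gdnf interval of the lower run lies wholly below 0.

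Gdnf, the ligand of the loop, averaged 7.84 ± 0.56 in activated and 8.53 ± 0.41 in wildtype samples (SD, n = 6 each). The difference of -0.69 (SE 0.25, 95% interval -1.22 to -0.16, limma adjusted p = 0.659) did not pass the test. In the higher run the values were 8.58, 8.32 and 7.67 in activated samples, against 8.32, 8.09 and 8.43 in wildtype samples, and the genotypes overlapped. Lower-run values were 7.68, 6.98 and 7.83 in activated samples, against 9.01, 8.24 and 9.08 in wildtype samples, and every activated array was below every wildtype array.

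The Gdnf difference was -0.09 (SE 0.23, limma adjusted p = 0.968) in the higher run and -1.28 (SE 0.29, limma adjusted p = 0.123) in the lower run. The lower-run value passed only where the spread was shared over all 4 groups of arrays (limma adjusted p = 0.0349). Leaving out 1 lower-run array at a time moved it between -1.55 and -1.03, with adjusted p from 0.0984 to 0.460, and without activated 2 it was -1.03 (0.193). The runs differed in the effect by 1.19 (SE 0.40, limma adjusted p = 0.443), which did not pass. Calb1 and Gdnf were the 2 members with a positive difference between runs at an unadjusted p under 0.05, as 2.97% of all genes were.

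The co-receptor gene Gfra1 read 5.21, 4.96 and 5.92 in activated samples of the higher run, against 4.85, 5.01 and 5.88 in wildtype samples. The lower-run values were 4.10, 6.33 and 5.55 in activated samples, against 5.41, 5.78 and 4.47 in wildtype samples. The samples were mixed in both runs, and the low and high ends of the whole range were both activated samples. The difference was 0.11 (SE 0.34, 95% interval -0.62 to 0.84, limma adjusted p = 0.996) and that of its second probe set was -0.41, so the pair differed in sign.

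Ret averaged 4.56 ± 0.49 in activated and 4.63 ± 0.42 in wildtype samples (SD, n = 6 each), below the highest bacterial control in both. Its difference of -0.06 (95% interval -0.58 to 0.45, limma adjusted p = 0.997) compares values without measured signal and bears on no change of the receptor in either direction.

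The ETS factors gave no call over 12 arrays. Etv4 read 4.56, 5.78 and 5.81 in activated samples of the higher run, against 5.40, 5.46 and 5.19 in wildtype samples. Its lower-run values were 4.41, 4.63 and 4.39 in activated samples, against 5.18, 4.73 and 5.60 in wildtype samples. The activated arrays were all lower there, but every lower-run array of either genotype except wildtype 3 read under the bacterial control. Its difference was 0.03 in the higher run, -0.69 in the lower run (SE 0.28, limma adjusted p = 0.587) and -0.33 over 12 arrays (SE 0.27, 95% interval -0.92 to 0.25, limma adjusted p = 0.932).

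Etv5 averaged 5.76 ± 0.23 in activated and 5.90 ± 0.34 in wildtype samples (SD, n = 6 each). The difference was -0.14 (SE 0.19, 95% interval -0.54 to 0.26, limma adjusted p = 0.960). In the activated samples its values ran between 5.52 and 6.12, and in the wildtype samples between 5.58 and 6.36, so the ranges overlapped almost fully just above the control level. The second probe set of Etv5 averaged 5.66 in activated and 5.73 in wildtype samples. Over the 12 arrays the pair had a Pearson r of only 0.096.

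The feedback inhibitors Spry1, Spry2 and Dusp6 had differences near 0 over 12 arrays. Spry1 averaged 9.80 ± 0.08 in activated and 9.86 ± 0.29 in wildtype samples (SD, n = 6 each), a difference of -0.06 with a 95% interval from -0.31 to 0.20. Spry2 averaged 9.60 ± 0.28 in activated and 9.67 ± 0.20 in wildtype samples (SD, n = 6 each), a difference of -0.07 with an interval from -0.36 to 0.21. The dim second probe set of Spry2 gave -0.29, and the pair had a Pearson r of 0.058 over 12 arrays. Dusp6, the phosphatase that switches off ERK, averaged 9.15 ± 0.14 in activated and 9.14 ± 0.08 in wildtype samples (SD, n = 6 each), a difference of 0.01 with an interval from -0.19 to 0.20. The limma adjusted p-values of these 3 genes lay between 0.975 and 0.999. The far end of the widest of these intervals was -0.36. Leaving out 1 array at a time moved the Spry1 difference between -0.17 and -0.015.

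Spry1 read 9.94, 9.83 and 9.79 in activated samples of the higher run, against 10.09, 9.88 and 10.06 in wildtype samples. Lower-run values were 9.77, 9.71 and 9.77 in activated samples, against 9.80, 9.32 and 10.03 in wildtype samples. The activated arrays lay close together, inside the wider range of the wildtype arrays, whose low end was wildtype 2.

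Dusp6 read 9.22, 9.11 and 9.22 in activated samples of the higher run, against 9.15, 9.20 and 9.07 in wildtype samples. Its lower-run values were 9.03, 8.97 and 9.35 in activated samples, against 9.22, 9.04 and 9.19 in wildtype samples. It had the smallest spread over the 12 arrays of the 10 members, with an SD of 0.11.

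Gata3 read 7.58, 7.38 and 7.13 in activated samples of the higher run, against 7.55, 7.79 and 7.88 in wildtype samples. Its lower-run values were 7.45, 8.02 and 7.68 in activated samples, against 8.33, 7.67 and 7.49 in wildtype samples. The genotypes overlapped in both runs. The difference was -0.24 over 12 arrays (SE 0.17, 95% interval -0.61 to 0.12, limma adjusted p = 0.909), and the smaller adjusted p within a run was 0.786, for -0.37 in the higher run (SE 0.17).

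As a group, 8 of the 10 members had a negative difference over 12 arrays, as 53.4% of all genes did. Their median difference was -0.11, beside -0.01 for all genes, and 2 of them (Calb1 and Gdnf) were lower at an unadjusted p under 0.05, as 3.14% of all genes were. In the higher run 5 of 10 were negative, as 50.3% of all genes were, with a median of -0.03, and limma called 0 members. There it called 0.00807% of all genes, and Calb1 was the 1 member lower at an unadjusted p under 0.05, as 3.16% of all genes were. In the lower run 7 of 10 were negative, as 54.4% of all genes were, with a median of -0.16 beside -0.03 for all genes. Calb1 was the 1 member called there, where 0.266% of all genes were called lower, and 3 members (Calb1, Gdnf and Etv4) had activated arrays wholly below wildtype arrays, as 7.09% of all genes did. For Etv4, every array of that run except wildtype 3 read under the bacterial control.

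**Figure D3:**
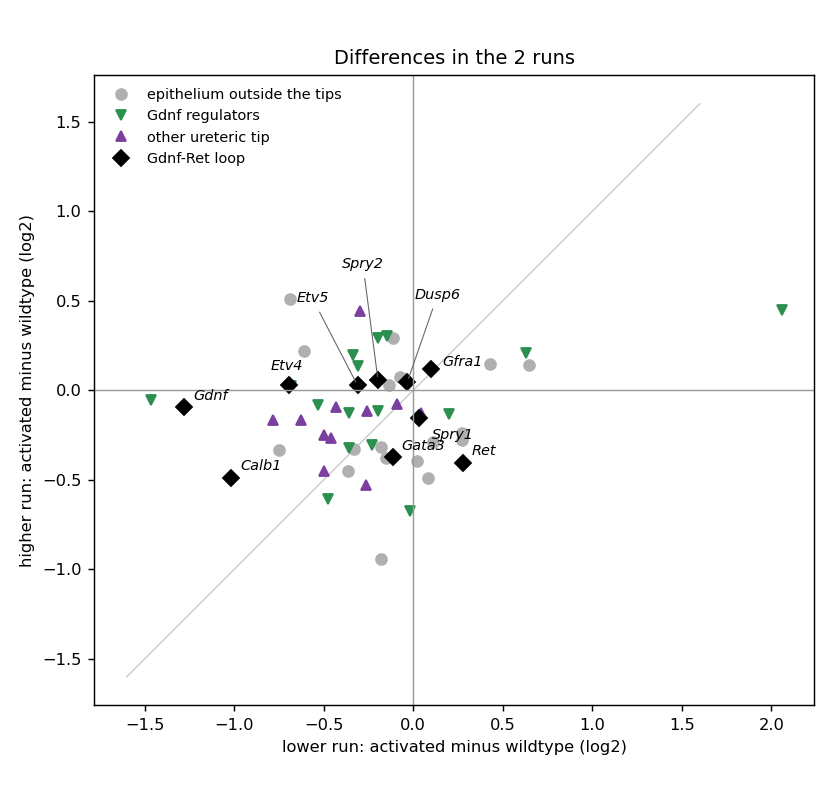
Activated minus wildtype difference in the higher run (vertical axis) against that in the lower run (horizontal axis), both in log2(intensity + 16), for the 10 members (black diamonds) and for genes of 3 lists. The grey line marks equal differences in both runs. Calb1 lies at -0.49 on the vertical axis, which did not pass the test, and at -1.02 on the horizontal axis, which did. Gata3 and Gdnf were also negative on both axes. Gdnf sits near 0 on the vertical axis at -0.09 and far left on the horizontal axis at -1.28.

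Each genotype was also compared between runs, with the spread shared over the 4 groups of arrays. Of the 10 members, limma called 0 between higher-run and lower-run activated samples, where 4.91% of all genes were called. Unadjusted p was under 0.05 for 4 members in the activated samples, all with a positive difference, as for 9.58% of all genes: Calb1 at 0.29, Gdnf at 0.69, Etv4 at 0.90 (adjusted p = 0.158) and Spry2 at 0.39 (adjusted p = 0.220). Spry1 and Spry2 were the members whose higher-run arrays were all above the lower-run arrays in the activated samples, as were those of 11.4% of all genes. Between higher-run and lower-run wildtype samples limma called 0 members, with 0 at an unadjusted p under 0.05, whereas 5.16% of all genes were called and 17.9% had an unadjusted p under 0.05.

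Genes that act upstream of Gdnf in the mesenchyme showed no call over 12 arrays: of 20 listed, 16 were measured, 11 of these had a negative difference, as 53.4% of all genes did, and limma called 0. At an unadjusted p under 0.05, 2 were higher and 2 lower. Their median difference was -0.20, beside -0.01 for all genes. Eya1, a transcriptional co-activator needed for Gdnf expression, averaged 5.20 in activated and 5.96 in wildtype samples (-0.76, SE 0.29, limma adjusted p = 0.692), and the forkhead factor Foxc1, which limits the Gdnf domain, had a difference of -0.33 (adjusted p = 0.791). The activated mean of Eya1 was under the bacterial control. Bmp4, which opposes the action of GDNF on the bud, averaged 7.80 in activated and 6.54 in wildtype samples (1.25, SE 0.35, limma adjusted p = 0.392).

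Within the lower run, Bmp4 was the 1 gene of this list that passed. It averaged 8.59 in activated and 6.53 in wildtype samples there, a difference of 2.06 (SE 0.32, limma adjusted p = 0.0205), and 0.331% of all genes were called higher in that comparison. In the higher run its difference was 0.45 (limma adjusted p = 0.815). Between runs, Bmp4 was lower in the higher-run than in the lower-run activated samples by -1.59 (limma adjusted p = 0.00454), and so was Slit2, a repellent that confines the Gdnf domain through Robo2, by -0.82 (adjusted p = 0.000881). In the wildtype samples Npnt, a matrix ligand that sustains Gdnf expression, differed by 0.99 (limma adjusted p = 0.00613) and Foxc2 by -0.57 (adjusted p = 0.00419), higher minus lower run. Over all genes, 4.91% were called between runs in activated and 5.16% in wildtype samples, in either direction.

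Of 8 relatives of GDNF and of its co-receptor, 7 were measured, and limma called 0 over 12 arrays, with 0 at an unadjusted p under 0.05. Nrtn, which encodes the ligand neurturin, had a difference of -0.57 (limma adjusted p = 0.871), the co-receptor gene Gfra3 -0.29 and the adhesion molecule gene Ncam1, whose product can also bind GDNF, -0.10. Nrtn was higher by 1.08 in the higher-run than in the lower-run activated samples (limma adjusted p = 0.0369). In that comparison 4.91% of all genes were called, in either direction.

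Other genes known from the ureteric tip gave no call by genotype. Of 16 listed, 11 were measured, and 10 of these had a negative difference over 12 arrays, as 53.4% of all genes did. Their median was -0.36 over 12 arrays, -0.16 in the higher run and -0.43 in the lower run. In limma 0 passed in these comparisons. At an unadjusted p under 0.05, 2 were lower over 12 arrays, as 3.14% of all genes were, and 3 were lower in the lower run. In the higher run 1 was lower at that p, Lhx1 (-0.53), as 3.16% of all genes were, and 1 was higher, Cxcr4 (0.44). Ros1 and Met of this list were under the control signal. The mean log2 value of the 11 genes ranged from 7.14 to 7.45 in activated and from 7.57 to 7.77 in wildtype samples, without overlap. How often other lists would separate in this way was not tested. The transcription factor genes Mycn (-0.36, adjusted p = 0.712) and Sox9 (-0.37, adjusted p = 0.844) and the kinase gene Wnk4 (-0.40, adjusted p = 0.768) had the smallest p-values over 12 arrays. Wnt11, a tip ligand that sustains Gdnf in the mesenchyme, had -0.04 (SE 0.26). Between runs, Myb was lower by -0.97 in the higher-run than in the lower-run wildtype samples (limma adjusted p = 0.0494), and the chemokine receptor gene Cxcr4 was higher by 0.80 in the activated samples (adjusted p = 0.0413). That was 1 of the 11 genes in each genotype, where 5.16% of all genes were called in wildtype and 4.91% in activated samples.

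The pathway between RET and the ETS factors gave no call by genotype. Of 22 listed genes of the receptor kinase to ERK cascade, 16 were measured and 14 of these had a negative difference, as 53.4% of all genes did, with a median of -0.14 over 12 arrays. Their summed intensity ranged from 4780 to 5188 in activated and from 5223 to 5644 in wildtype samples, without overlap on the 12 arrays. The mean log2 value of the list did overlap, from 7.27 to 7.51 in activated and from 7.39 to 7.60 in wildtype samples. Limma called 0 of the 16 over 12 arrays and in either run, with 0 at an unadjusted p under 0.05 in all 3. The adaptor gene Grb2 had -0.32, the phosphatase gene Ptpn11 -0.15 and Fgf8, under the control signal, -0.42.

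Feedback and immediate early genes of that cascade gave no call by genotype either. Of 16 listed, 12 were measured, with 6 negative differences over 12 arrays, beside 53.4% negative over all genes. Their median was 0.03, and limma called 0, with 0 at an unadjusted p under 0.05. Calls were made between the runs, as for 4.91% of all genes in activated and 5.16% in wildtype samples, in either direction. Between higher-run and lower-run activated samples 4 of the 12 rose: Fos by 2.11, Egr1 by 1.22, Errfi1 by 0.78 and Phlda1 by 0.48. Between the wildtype samples 5 rose: Fos by 2.12, Ier3 by 2.28, Egr1 by 1.10, Dusp1 by 0.92 and Errfi1 by 0.72. Beside these, Dusp6, Spry1, Spry2, Etv4 and Etv5 gave no call between runs in either genotype.

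Markers of other cells also differed between the runs, where 4.91% of all genes were called in activated and 5.16% in wildtype samples. Macrophage genes had a median difference, higher minus lower run, of 1.27 in activated samples, where 5 of 7 rose (Csf1r, Cd68, Fcer1g, Tyrobp and Mrc1), and of 1.03 in wildtype samples, where 3 of 7 rose (Cd68, Tyrobp and Mrc1). Erythroid genes had a median of -2.21 in activated and of -1.99 in wildtype samples, and the same 3 of 4, the embryonic globin genes Hbb-y, Hbb-bh1 and Hba-x, fell in each genotype. The part of these cells in the run differences of the members or of the feedback genes was not tested. Among the other lists, Cited1 (2.47, limma adjusted p = 0.00134), Elavl4 (1.42, adjusted p = 0.00373) and Col3a1 (0.47, adjusted p = 0.00318) rose in the higher-run activated samples, and the Wnt targets Axin2 (-1.61), Sp5 (-1.79) and Notum (-2.68) fell there.

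Markers of other cells were set beside these results. For ureteric epithelium outside the tips, 18 of 20 genes were measured. Over 12 arrays 14 of these had a negative difference, as 53.4% of all genes did, with a median of -0.14. Limma called 0, with 0 at an unadjusted p under 0.05. Epcam, an epithelial adhesion gene, had -0.56 (adjusted p = 0.844) and Elf5 -0.54 (adjusted p = 0.869), while Gata2 had 0.29 (adjusted p = 0.876) and Krt19 0.39 (adjusted p = 0.968). Their summed intensity ranged from 4867 to 6529 in activated and from 6619 to 7781 in wildtype samples of the higher run. In the lower run it ranged from 3107 to 4812 in activated and from 3600 to 4355 in wildtype samples. The mean log2 value of the list overlapped between genotypes in both runs: it ranged from 7.32 to 7.57 in activated and from 7.51 to 7.77 in wildtype samples of the higher run, and from 6.72 to 7.10 in activated and from 6.87 to 7.09 in wildtype samples of the lower run. The part of these cells in the Calb1 difference was not tested. Wnt9b, Hoxb7 and Aqp2 of this list were under the control signal.

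Between runs, 4 epithelial markers rose in the higher-run activated samples (Krt8 by 1.17, Krt19 by 2.03, Ehf by 1.09 and the urothelial gene Upk3a by 2.03) and 5 in the higher-run wildtype samples (Krt8 by 1.16, Krt19 by 2.53, Krt7 by 1.67, Cdh16 by 1.12 and Upk3a by 2.43). Of all genes, 4.91% were called between runs in activated and 5.16% in wildtype samples. Calb1 was not called between runs in either genotype, at 0.29 in activated and -0.24 in wildtype samples.

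Cap mesenchyme, the nephron progenitors that supply much of the GDNF, is given here beside Gdnf. All 10 of its markers had a negative difference over 12 arrays, as 53.4% of all genes did, with a median of -0.96. In limma 0 passed, and 7 were lower at an unadjusted p under 0.05, as 3.14% of all genes were. Six2 (-2.01, limma adjusted p = 0.00155), Meox1, Uncx, Capn6 and Traf1 fell in the lower run. That was 5 of the 10 markers, where 0.266% of all genes were called lower. Their summed intensity ranged from 2527 to 3551 in activated and from 3283 to 4049 in wildtype samples of the higher run, and from 958 to 1155 in activated and from 3618 to 4058 in wildtype samples of the lower run. The part of these cells in the Gdnf difference was not tested.

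Of the stromal list, 0 of 10 genes were called in the higher run by limma, with 1 at an unadjusted p under 0.05. In the lower run, where 0.266% of all genes were called lower, 4 fell: Foxd1 (-0.93), Meis2 (-0.83), Aldh1a2 (-1.09) and Ntn1 (-2.02). The proteoglycan gene Dcn of this list rose with a term for the run (0.72, SE 0.09, limma adjusted p = 0.00668), and its activated arrays lay above its wildtype arrays in both runs, with differences of 0.86 in the higher run (adjusted p = 0.146) and 0.57 in the lower run (adjusted p = 0.178). Of the neuronal list, 7 of 10 genes were measured and 2 fell in the lower run, Stmn2 and Dcx. Its summed intensity was 197 to 243 in activated and 620 to 841 in wildtype samples of the lower run. Tubb3, Th and Dbh of that list averaged under the control signal over 12 arrays. In the lower run Tubb3 went the other way, at 5.74 in activated and 4.70 in wildtype samples. It did not pass (1.04, limma adjusted p = 0.381), and the other 6 measured genes had negative differences there. Neurons also contain calbindin, and the part of these cells in the Calb1 difference was not tested. The endothelial, macrophage and erythroid lists gave 0 calls in limma over 12 arrays, with medians of 0.36, 0.10 and -0.21 and with 2, 0 and 0 genes at an unadjusted p under 0.05. The endothelial genes with the smallest p-values were Cd34 at 0.86 (adjusted p = 0.302), Sox17 at 0.73 (adjusted p = 0.388) and Pecam1 at 0.57 (adjusted p = 0.812). Pecam1 averaged 4.91 in activated and 4.35 in wildtype samples, under the control signal in both.

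Calb1 and Gdnf were then expressed against these lists within each array, as the log2 value of the gene minus the mean of the list. These relations were chosen after the values were seen, and Calb1 was already known to separate the genotypes, so they are a description with no test. Against the 18 markers of ureteric epithelium outside the tips, Calb1 differed between activated and wildtype samples by -0.32 in the higher run and by -0.92 in the lower run. Against the 11 other tip genes it differed by -0.32 in the higher run and by -0.64 in the lower run.

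Against the 10 cap mesenchyme markers, Gdnf differed by 0.12 in the higher run and by 0.14 in the lower run, and the genotypes overlapped in both. Against the 16 regulators, it differed by -0.04 in the higher run and by -1.13 in the lower run. These lists share Eya1, Sall1 and Itga8, so the relations are not independent.

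**Figure D4:**
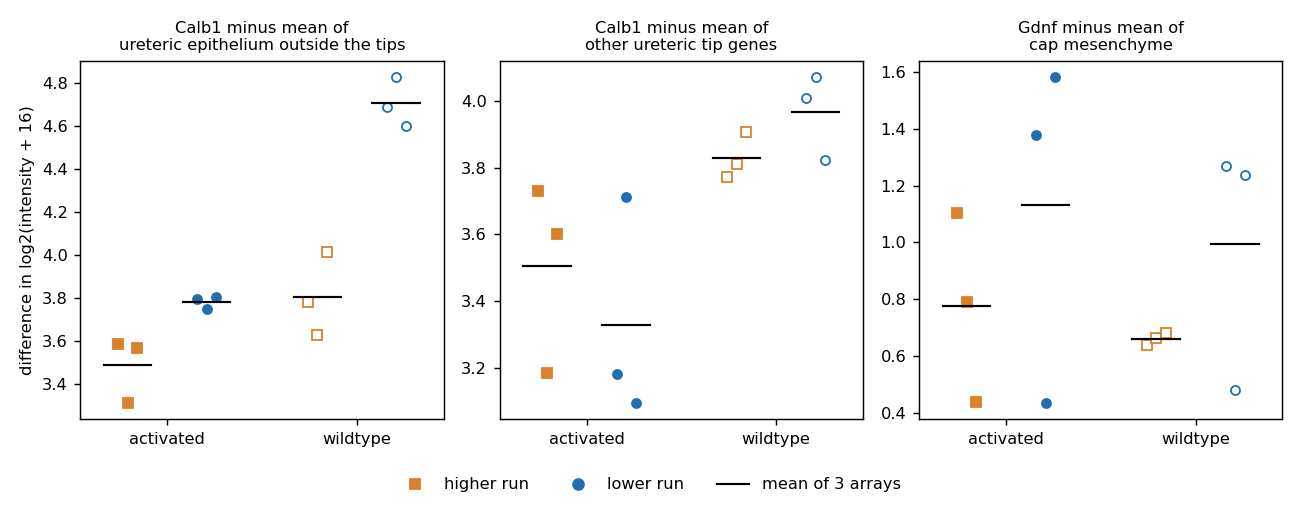
Log2 value of Calb1 minus the mean of 18 epithelial markers (left) or of 11 other tip genes (middle), and of Gdnf minus the mean of 10 cap mesenchyme markers (right), on each activated (filled) and wildtype (open) array of the higher run (orange squares) and the lower run (blue circles). Bars are means of 3 arrays. In the left panel the activated arrays lie below the wildtype arrays of their own run, and in the right panel the genotypes overlap in both runs.

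The genes most like Calb1 over the 12 arrays, among 7435 of the brighter genes, were Sorcs2 (Pearson r 0.931), Ctdspl (0.900), Plagl1 (0.887), Sel1l3 (0.885) and Actn3 (0.882). All 5 had a negative difference, between -0.84 and -0.33, and none passed the test (limma adjusted p between 0.247 and 0.5001). These arrays share the genotype split that separates Calb1, so r is a measure of likeness only. For Ret the nearest were Ddx49 (0.772), Rps14 (0.768), Hoxd9 (0.765), Gpaa1 (0.762) and 2310033P09Rik (0.759), and since Ret was under the control signal these describe the variation of an unmeasured gene.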

How the data were processed

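RNA from 12 samples was hybridised to Affymetrix 3′ expression arrays, 1 array a sample, after Trizol extraction, per the labels' protocols. The authors deposited 1 linear intensity per probe set and array (22690 probe sets). The software behind it is not stated in these sources, and the labels' pair of dyes was not used, since each array holds a single value. After trimming 2% from each end, array means lay between 249.969 and 249.975, which shows a scaling of the intensities as deposited. Array quartiles of log2(intensity + 16) differed by up to 0.29, above the limit of 0.1, so quantile normalisation was applied. Of the probe sets, 1555 without a symbol, 691 with several and 64 controls were left out of the tests. Each of 12393 genes was represented by its probe set with the highest mean.

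Fits used limma 3.58.1 in R 4.3.3, with a variance trend and Benjamini-Hochberg adjustment over all genes at 0.05, in 7 comparisons: activated against wildtype over 12 arrays, with the run as a term, and within each run, the difference between runs in that effect, and the higher against the lower run in each genotype. Plots used matplotlib 3.10.9. On simulated data, the 12-array fit recovered 43% of changes of 0.5 and 88% of changes of 1 (log2) among the brighter 60% of genes. With the run as a term it recovered 42% and 87%, and the lower-run fit recovered 0% and 32%. How far differences between the runs lower the recovery of the 12-array fit was not tested. The number of arrays limits the precision.

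The members and lists were chosen with earlier results of these data known. The genes named are the members, list genes that passed in any comparison or otherwise the 3 with the smallest p, and the 5 genes most like Calb1 and Ret. In lists with genes past the test, genes with the smallest 12-array p were named too. Wnt11, Krt19, Pax8, Sall1 and Lhx1 were named for their 12-array values, and Lhx1 also for its higher-run value. All of these were chosen after the values were seen. Not every comparison in which a list gene passed is printed. Lists can share genes, as the other tip genes and the feedback genes share Spred2. Alternatives covered scaling, pseudocount, dim genes, probe sets, variance settings, array weights, covariates and leaving out arrays.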

Additional observations from a re-analysis of the deposited data

Results flagged for a closer look

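Each genotype's 6 arrays were searched for a value far from the others, by Dixon's test at its 95% critical value for 6 values, over the 14 probe sets of the members. Of 28 groups tested 3 stood out, and chance alone marks about 1 group in 20. Wildtype 2 had the lowest Spry1 value of the wildtype arrays, at 9.32, with a gap of 0.62504 of the group's range. Activated 1 had the lowest value of the activated arrays for the second probe set of Etv5, at 4.77, with a gap of 0.637 of the range. Wildtype 4 had the lowest value of the wildtype arrays for the same probe set, at 4.56, with a gap of 0.689 of the range. The level of both Etv5 values was under the highest bacterial control signal of 5.45.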

How the results depend on the processing

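Of 290 repeats of a member's result under alternatives other than leaving out a single array, 267 kept the direction and the side of the threshold. Another 14 changed sign, 8 lost a call and 1 gained one, and the causes of these changes were not tested. Calb1 was the only member called in any main fit, so only Calb1 had a call to lose and the 267 says little about the other members. For the difference between runs and for the runs within a genotype, only Calb1, Gdnf, Etv4 and Spry2 were counted. No paired analysis was possible because the replicate numbers were given in accession order and pair no arrays. Calb1 over 12 arrays also lost its call with arrays centred on their medians (adjusted p = 0.0721), each probe set tested alone (0.0742), no variance trend (0.171), array weights (0.0896) or a covariate of Y-linked signal (0.0682), and with the run in the model under the mean of probe sets (0.0549), all in limma and all with a difference between -0.76 and -0.69. Dim members carry only weak evidence: Ret, Gfra1 and Etv4 lay around or under background.

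Differences near 0 changed sign. In the 12-array fits without and with the run, Dusp6 gave -0.0019 on the deposited scale and -0.0028 with median centring, and Gfra1 gave -0.038 with a pseudocount of 1, -0.15 with the mean of probe sets and -0.10 without activated 2 and activated 4. With a covariate of 5′ over 3′ control signal Gfra1 gave -0.11 without and -0.12 with the run in the model, and Spry2 gave 0.015 and 0.0023. Leaving out 1 array at a time, the range over 12 arrays was -0.20 to 0.084 for Ret, -0.086 to 0.36 for Gfra1, -0.12 to 0.026 for Spry2 and -0.032 to 0.042 for Dusp6. With the run as a term it was -0.20 to 0.12 for Ret, -0.11 to 0.38 for Gfra1, -0.12 to 0.0070 for Spry2 and -0.040 to 0.043 for Dusp6. In the higher run it was -0.29 to 0.17 for Gdnf, -0.16 to 0.44 for Gfra1, -0.19 to 0.44 for Etv4, -0.16 to 0.15 for Etv5 and -0.016 to 0.16 for Spry2. In the lower run it was -0.40 to 0.72 for Gfra1, -0.17 to 0.19 for Spry1, -0.15 to 0.038 for Dusp6 and -0.28 to 0.14 for Gata3. Between higher-run and lower-run wildtype samples it was -0.043 to 0.39 for Etv4.

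Counts of genes called over the whole table moved as follows. The 12-array count of 3 became 1 with the mean of probe sets, 1 without a variance trend and 13 with the run as a term, and 0 to 4 leaving out an array. The count of 13 with the run as a term became 8 with median centring (7 higher and 1 lower, against 10 and 3), 8 with the mean of probe sets, 8 without activated 2 and activated 4 (a setting chosen after seeing the data), 52 with the 5′ to 3′ covariate and 4 to 20 leaving out an array. The lower-run count of 74 became 188 with a shared spread and 30 to 87 leaving out an array. The higher-run count of 1 became 2 with median centring, 2 with a shared spread and 0 to 1 leaving out an array. For the difference between runs, 41 became 18 with median centring (3 higher and 15 lower, against 12 and 29) and 16 to 51 leaving out an array. Between higher-run and lower-run samples, the wildtype count of 640 became 413 with median centring (334 higher and 79 lower, against 437 and 203) and 361 to 504 leaving out an array, and the activated count of 609 became 352 to 644.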
